A study of Mus musculus with 8 samples.

Results

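The genes of platelet-derived growth factor (PDGF) signalling were followed across the cells of mouse dorsal skin. They comprise the 4 ligands Pdgfa, Pdgfb, Pdgfc and Pdgfd, the receptors Pdgfra and Pdgfrb, and the receptor-like gene Pdgfrl. Members are given by gene symbol, with no threshold on measured values, and all 7 were found among the 31053 genes listed in the files. In the GRCm38 annotation, all are protein-coding: Pdgfa at chr5:138976014-138997370 and Pdgfb at chr15:79995874-80014977 on the minus strand, and on the plus strand Pdgfc at chr3:81036416-81214040, Pdgfd at chr9:6168584-6378850, Pdgfra at chr5:75152292-75198215, Pdgfrb at chr18:61045150-61085061 and Pdgfrl at chr8:40926212-40990785. The skin came from female BALB/c mice of 14 to 16 weeks, and 4 libraries were labelled as injected with PBMCsec, the proteins and other factors that irradiated human blood mononuclear cells release in culture, and 4 as injected with vehicle. The labels name a subcutaneous injection and a library number, while the study's methods describe injections into healed full-thickness wounds. Wound age and the control solution behind each vehicle library (medium or NaCl) are not in the labels, so the libraries were compared by treatment alone. Nothing in the labels says that each library came from a mouse of its own, so p-values cover the spread between libraries, part of which may be technical.

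PDGFs are dimeric growth factors that bind receptor tyrosine kinases on mesenchymal cells. PDGF-A and PDGF-B are cleaved inside the cell before secretion, whereas PDGF-C and PDGF-D are secreted as latent proteins that proteases such as tissue-type and urokinase-type plasminogen activator activate outside the cell. PDGFRα binds A, B and C chains, and PDGFRβ binds B chains and PDGF-D. In skin, PDGF-A from epidermis and hair follicle acts on dermal fibroblasts and the dermal papilla, and PDGF-B from endothelium recruits pericytes to vessels. Pdgfrl encodes a protein related to the extracellular domain of the receptors, without a kinase.

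The libraries held 14753926 to 37880651 UMIs (unique molecular identifiers, each counting 1 captured RNA molecule) in 1457 to 5621 barcodes. A limit of 5% mitochondrial counts, with the study's limits on genes and UMIs, left 6150 of 26231 barcodes, from 151 to 1659 cells per library. PBMCsec library 2 and vehicle libraries 1 and 2 were the smallest, with 313, 151 and 208 cells. TCs made up 30.03%, 29.1% and 24.04% of the cells in these, against 7.84% to 14.98% in the other 5 libraries. Of all barcodes, 78 occurred in more than 1 library, of which 4 were among the kept cells. Cells fell into 36 clusters without use of the members, and 30 clusters were named from marker genes, each name standing for cells like that class: fibroblasts (FBs, 1353 cells), hair follicular cells (HFs, 1168), keratinocytes (KCs, 1119), T cells (TCs, 773), dendritic cells and macrophages (DCs/Macro, 518), neutrophils (117), endothelial cells (ECs, 82), melanocytes (Mel, 64), smooth muscle cells and pericytes (SMCs/PCs, 39) and mast cells and basophils (27). Each FB cluster passed 6 to 9 of the 9 FB markers, always with Dcn and Lum, and Col1a1 was passed by clusters 0 and 7 only. The 6 unnamed clusters held 890 cells. Levels by class are given as CPM, the UMIs of a gene per 1000000 UMIs of the class in that library, and a 3′ method does not allow levels to be compared between genes.

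Pdgfra marked FBs. In libraries with at least 10 cells of a class, the FB level was 534 ± 201 CPM (SD, n = 8), with a lowest library of 355, a median of 457 and a highest of 917. The Mel cluster came next with 81.8 ± 54.9 CPM (n = 4), from 0 to 117. KCs, HFs, TCs, ECs, DCs/Macro and neutrophils had means of 0 to 4.23 CPM. No library of another class reached the lowest FB library. A UMI of Pdgfra was found in 1179 of 1353 FBs (87.1%, exact 95% interval 85.2 to 88.9, median depth 8598 UMIs) and in 8 of 1119 KCs (0.715%, median depth 10764), which do not belong to the cells known to carry it. After each cell was thinned to 1000 UMIs, the share was 33.2% of FBs and 0.181% of KCs. None of the 39 SMCs/PCs held a Pdgfra UMI among their 200370 UMIs (exact 95% counting interval 0 to 18.4 CPM).

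Pdgfrb, the receptor of mural cells, was highest in SMCs/PCs. This class came from 6 libraries and had 10 cells or more in only 1, so its values are pooled with intervals that cover counting error only. Its 39 cells held 196 Pdgfrb UMIs, or 978 CPM (95% interval 846 to 1125), and 35 of them (89.7%) had at least 1. The spread between libraries was wider than this interval, from 374 CPM in vehicle library 3 (4 cells) to 1648 CPM in vehicle library 4 (8 cells). Vehicle library 4 held 79 of the UMIs. FBs followed with 145 ± 32.4 CPM (n = 8), with a lowest library of 114, a median of 135 and a highest of 212. All FB libraries lay above the highest library of any class outside the mural cells, which was a Mel library at 93.6 CPM. Pdgfrb UMIs were found in 58.0% of FBs and 0.447% of KCs. ECs held none among 82 cells, at a total of 549114 UMIs (95% counting interval 0 to 6.72 CPM).

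The counts of both receptors set the mesenchymal classes apart. In FBs, 729 of 1353 cells (53.9%) held UMIs of both, 33.3% of Pdgfra alone, 4.14% of Pdgfrb alone and 8.72% of neither. By library, the share with both lay between 38.9% (vehicle library 2, 18 FBs) and 65.4% (PBMCsec library 2, 52 FBs). Among SMCs/PCs the share with both was 0% and the share with Pdgfrb alone was 89.7%. These shares depend on depth, since a cell without a UMI may still hold the RNA, and the median SMC/PC held 4929 UMIs.

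Pdgfrl followed the receptors. FBs reached 152 ± 59.6 CPM (n = 8), with a median of 169 and a highest library of 206, while vehicle library 1 (26 FBs) stood lowest at 30.99. SMCs/PCs held 79.9 CPM in the pooled count (16 UMIs, 95% interval 45.6 to 130). KCs, HFs, TCs and DCs/Macro had means of 0.236 to 0.859 CPM, and no UMI was found in ECs. The named FBs held 80.6% of the 6697 Pdgfra UMIs, 70.8% of the 2242 Pdgfrb UMIs and 78.1% of the 2574 Pdgfrl UMIs in kept cells. With the unnamed clusters 16 and 29, added after their values were seen, the shares were 99.1%, 89.4% and 98.4%. Cluster 16 (Peg3, Cxcl12, Lepr, Postn) passed 9 of 9 FB markers but was left unnamed because Postn, also on the HF list, was among its leading genes. Cluster 29 (Slc26a7, Crabp1, Wif1, Hhip) passed no FB marker.

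**Figure D1:**
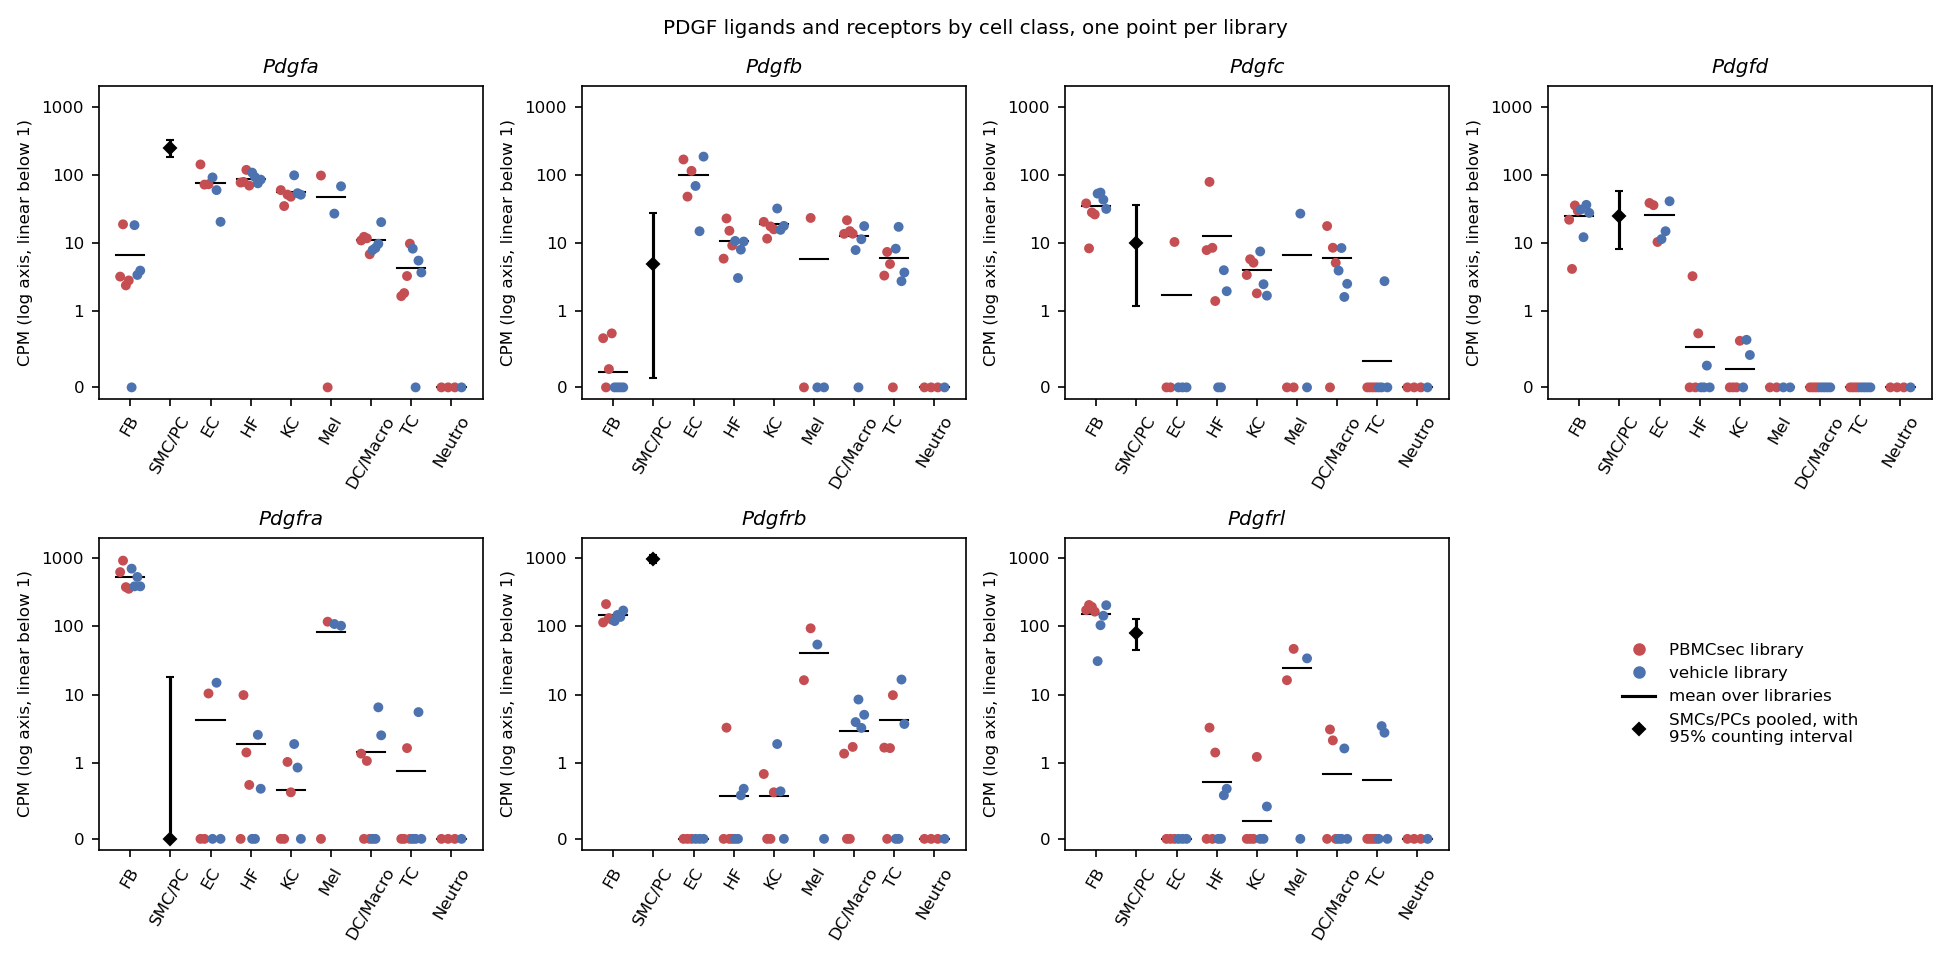
Level of each member (vertical axes, CPM on a log scale that is linear below 1) by cell class (horizontal axes). Each point is a library with at least 10 cells of the class, red for PBMCsec and blue for vehicle, black lines are means over libraries, and the diamond is the pooled value of the 39 SMCs/PCs with its 95% counting interval. Pdgfra and Pdgfrl stand highest in FBs, Pdgfrb in SMCs/PCs at 978 CPM, Pdgfb in ECs, and Pdgfa in SMCs/PCs at 250 CPM, with HFs, ECs and KCs next.

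Of the ligands, Pdgfa had most of its UMIs in epithelial cells, while its highest pooled level was in SMCs/PCs. HFs had 88.1 ± 17.1 CPM (n = 8), from 69.7 to 118 with a median of 82.0. ECs followed with 76.5 ± 40.0 CPM (n = 6) and KCs with 56.8 ± 19.9 CPM (n = 7). These ranges overlapped, and the order of HFs, ECs and KCs did not pass a test between neighbours (exact two-sided sign-flip permutation tests over 6 shared libraries, p = 0.469 and p = 0.531). FBs, whose Pdgfra binds this ligand, had 6.64 ± 7.49 CPM, and Pdgfa UMIs were found in 2.14% of FBs against 40.5% of HFs and 37.8% of KCs. KCs, HFs and the unnamed clusters 9, 13 and 24, taken as epithelial from their leading genes after their values were seen, held 91.4% of the 2432 Pdgfa UMIs. This share also depends on how many cells of each class were kept. SMCs/PCs had the highest pooled level, 250 CPM (50 UMIs in 39 cells, 95% interval 185 to 329), with a UMI in 51.3% of cells.

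The epithelial level of Pdgfa was uneven. Pooled over libraries, cluster 9 (Lgr5, Id4, Sfrp1) had 192 CPM (95% counting interval 175 to 211, 451 UMIs in 238 cells), cluster 1 of the HFs (Lhx2, Grem1, Npnt) 167 CPM (153 to 183) and cluster 13 (Tagln, Acta2, Fgf5) 122 CPM (106 to 139). Cluster 21 of the HFs (Tchh, Krt71, Krt25, genes of the inner root sheath) had 20.4 CPM (13.1 to 30.4), and cluster 3 of the KCs (Krt1, Krt10, keratins of suprabasal epidermis) had 23.0 CPM (17.99 to 28.9). Cluster 4 of the KCs, with Krt14 among its leading genes, lay between these at 67.2 CPM (58.5 to 76.8). A UMI was present in 77.7% of the cells of cluster 9, against 19.7% in cluster 3, where the median cell was deeper (12151 against 9960 UMIs).

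Pdgfb was highest in ECs, at 99.9 ± 67.8 CPM (n = 6), from 14.96 to 185. Its level differed between the EC clusters. Cluster 34 (Plvap, Cd36, Aqp1), which passed 9 of 9 EC markers and none of the lymphatic list, had 191 CPM (95% counting interval 137 to 259, 41 UMIs in 33 cells) and cluster 32 (Ccl21a, Lyve1, Prox1), which passed 7 of 7 lymphatic markers, had 23.9 CPM (10.3 to 47.2, 8 UMIs in 49 cells). Pdgfa ran the other way, with 37.2 CPM (16.1 to 73.3) in cluster 34 and 105 CPM (73.0 to 146) in cluster 32. In the 6 libraries that held 10 ECs or more, Pdgfb was higher in ECs than in KCs in 5, with a mean difference of 1.59 on the log2(CPM + 10) scale (exact two-sided sign-flip permutation test, p = 0.0625, smallest possible 0.0312).

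After ECs, Pdgfb stood at 18.8 ± 6.50 CPM in KCs (n = 7), 12.7 ± 6.54 in DCs/Macro (n = 8), 10.7 ± 6.11 in HFs and 5.99 ± 5.28 in TCs. KC clusters 4 and 8 (Serpinb2, Fosl1) had 27.9 and 31.2 CPM, while the KC cluster 10 (Pthlh, Wfdc18) had 1.37 CPM from 3 UMIs. Among DCs/Macro, the C1q-rich cells of cluster 20 had 29.1 CPM (19.5 to 41.8) and the Cd207-rich cells of cluster 22 had 2.04 CPM (0.247 to 7.38). FBs held 3 Pdgfb UMIs in 1353 cells.

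**Figure D2:**
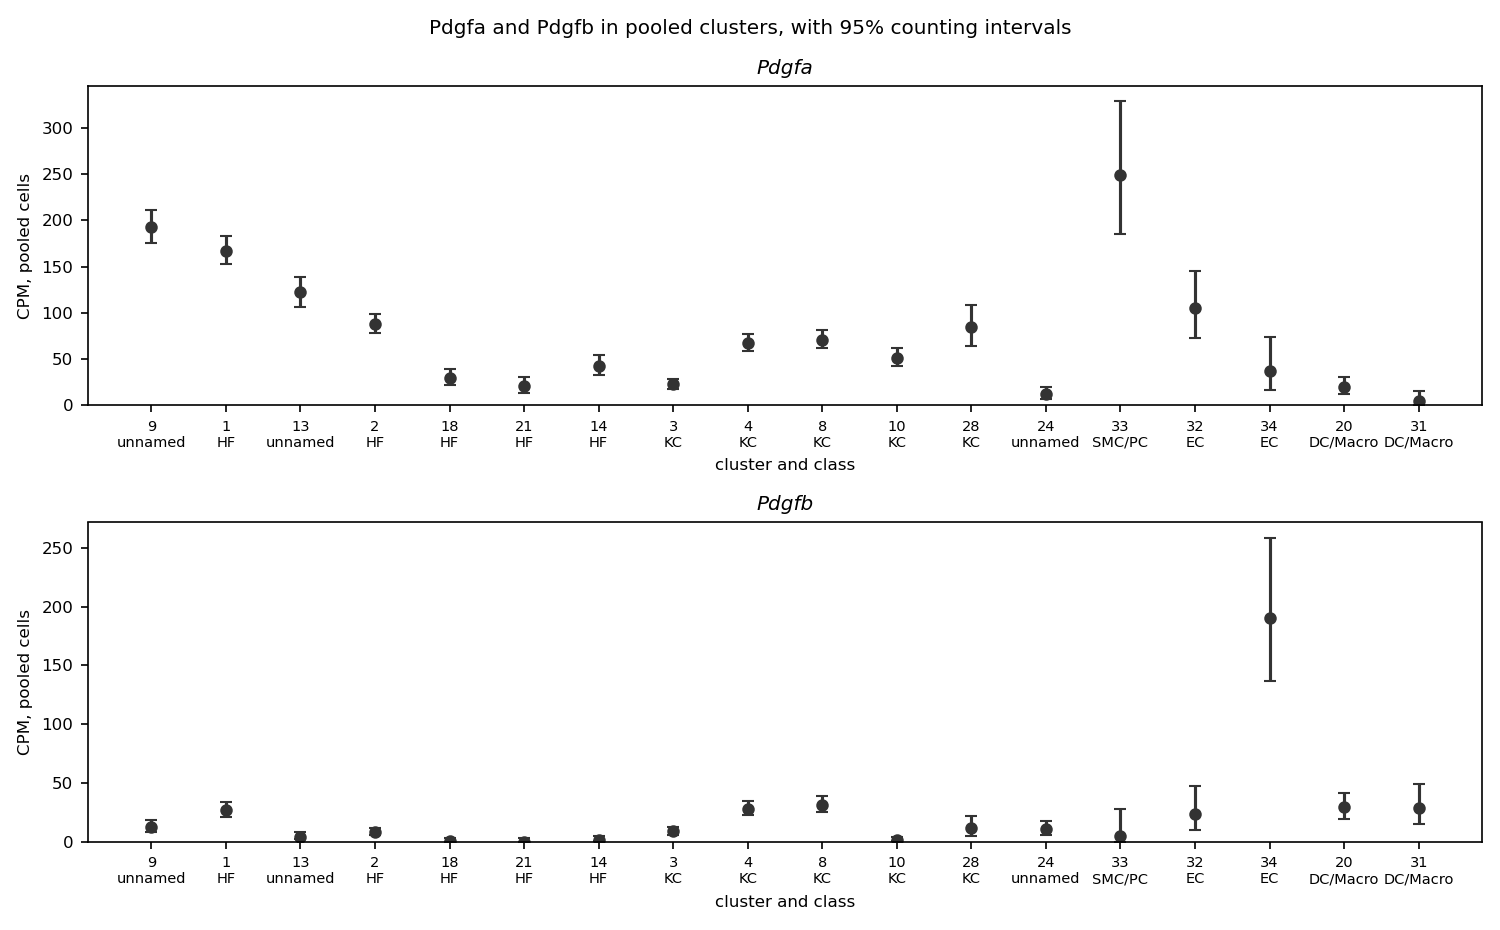
Pooled level of Pdgfa (upper panel) and Pdgfb (lower panel) in CPM (vertical axes) in epithelial clusters, SMCs/PCs (cluster 33), ECs (clusters 32 and 34) and macrophages (clusters 20 and 31), with 95% counting intervals as bars. Pdgfa is highest in clusters 33, 9, 1 and 13, and Pdgfb in cluster 34 at 191 CPM.

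Of the ligands that need activation outside the cell, Pdgfc had its highest class mean in FBs, and Pdgfd had close class means in FBs and ECs. Pdgfc had 35.5 ± 15.3 CPM in FBs (n = 8), with a lowest library of 8.39 (PBMCsec library 2), a median of 34.98 and a highest of 55.1. HFs came next with 12.8 ± 26.9 CPM, a mean set by PBMCsec library 2, where 24 UMIs in 34 HFs gave 78.9 CPM, while the other 7 HF libraries lay between 0 and 8.55. The difference of FBs over HFs was 1.37 on the log2(CPM + 10) scale over 8 libraries (exact two-sided sign-flip permutation test, p = 0.0547), and 1.89 without PBMCsec library 2. Pooled over libraries, the C1q-rich DC/Macro cluster 20 held Pdgfc at 26.1 CPM (95% counting interval 17.0 to 38.2), against 1.32 in the Cd209a-rich cluster 17. Of the 28 Pdgfc UMIs in DCs/Macro, 13 came from PBMCsec library 1 and 8 from PBMCsec library 3. Each vehicle library held 1. In the HF cluster 1 Pdgfc reached 20.8 CPM (15.8 to 26.9), pooled over libraries. This cluster held 58 of the 69 Pdgfc UMIs in HFs, so some of the 24 from PBMCsec library 2 lay in it. The counting interval does not cover this.

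Pdgfd had 24.9 ± 11.4 CPM in FBs (n = 8), from 4.20 to 36.4, and 25.5 ± 14.6 CPM in ECs (n = 6), from 10.4 to 41.1. Their order did not pass a test (p = 0.688, exact permutation), and the mean log2 difference ran against the order of the mean CPM, at -0.14 for ECs minus FBs. Of the EC counts, 11 UMIs fell in the 33 cells of cluster 34, at 51.2 CPM, and 1 in the lymphatic cluster 32. SMCs/PCs held 25 CPM in the pooled count, from 5 UMIs in 2 of 39 cells (95% interval 8.10 to 58.2). FBs exceeded HFs in 8 of 8 libraries, by 1.64 on the log2(CPM + 10) scale (exact two-sided sign-flip permutation test, p = 0.00781, the smallest that 8 libraries allow). No UMI of Pdgfd was found in 773 TCs, 518 DCs/Macro or 117 neutrophils.

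Over the 44 neighbouring pairs of classes compared for the 7 members, none passed after Benjamini-Hochberg adjustment (smallest adjusted p = 0.344, exact permutation, for Pdgfd in FBs over HFs), and this was the only pair with an unadjusted p under 0.05. Pairs that shared 4 libraries, 16 of the 44, could not reach an exact p below 0.125. The order of neighbouring classes is therefore given as a description.

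Pdgfrb was also counted in TCs, with 12 UMIs in all. Of these, 6 came from vehicle library 3 and 3 from PBMCsec library 4, and 3 of 8 libraries held none. The TC cluster 11 (Ccl5, Xcl1, Nkg7, Prf1) held 9 Pdgfrb UMIs in 8 of 212 cells, or 9.17 CPM (95% counting interval 4.19 to 17.4), and 1 Pdgfra UMI (1.02 CPM, 0.0258 to 5.67). FBs of the same libraries held 1588 and 5396. The TC clusters 15 and 26 held 2 Pdgfrb UMIs in 193 cells (2.29 CPM, 0.277 to 8.27) and 1 in 95 cells (2.52 CPM, 0.0639 to 14.1), intervals that overlap that of cluster 11, and the TC cluster 5 (Trac, Cd4) held none in 273 cells. In the Mel cluster, by contrast, Pdgfra, Pdgfrb and Pdgfrl were counted 12, 7 and 5 times in 64 cells, where the median cell had 2133 UMIs. Whether RNA from other cells contributed to either count was not tested.

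Between some of the FB clusters, Pdgfc and Pdgfd differed in the opposite way to the receptor genes. The Pi16-positive clusters 6 and 12 (Pi16, Smpd3, Tmem100) held more Pdgfc and Pdgfd, and clusters 0 (Hmcn2, Angptl1, Mgp), 7 (Cilp, Mfap4) and the unnamed cluster 16 held more of all receptor genes. This grouping was made after the values were seen and is given as a description. It leaves out FB clusters 19 and 25 and the unnamed cluster 29. In libraries with at least 10 cells, Pdgfc ran from 24.6 to 136 CPM in cluster 25 and from 22.8 to 134 in cluster 29. Pdgfd ran from 0 to 16.4 and from 0 to 23.1 CPM in these (3 libraries each). These values rest on few counts. Pdgfc had 2, 3 and 5 UMIs in the libraries of cluster 25, and 17, 1 and 1 in those of cluster 29. Pdgfd had at most 2 UMIs in a library of either cluster. Such counts cannot tell whether clusters 25 and 29 differ from clusters 6 and 12 in these genes. Cluster 19 had 38.1 ± 14.3 CPM of Pdgfc and 28.8 ± 32.8 of Pdgfd (n = 4). Summed per library, Pdgfc was 60.2 ± 30.8 CPM in clusters 6 and 12 and 12.6 ± 8.38 in clusters 0, 7 and 16, higher in the former in 8 of 8 libraries. Some of these rest on few counts. PBMCsec library 2 had 1 UMI in 14 cells (7.72 CPM) against 3 in 51 cells (6.36 CPM). Vehicle library 2 had 7 UMIs in 8 cells against 0 in 9 cells. Pdgfd was 39.4 ± 16.1 against 14.7 ± 7.88 CPM and higher in 7 of 8. The other ligands did not share this, with Pdgfa at 0.386 ± 0.753 against 8.39 ± 15.96 CPM and Pdgfb at 0 against 0.344 ± 0.504 CPM, each higher in clusters 6 and 12 in 0 of 8 libraries. Both were near the floor, and some libraries had 0 in both groups of clusters. For Pdgfa, 3 UMIs in 9 cells of vehicle library 2 gave 47.6 CPM in clusters 0, 7 and 16.

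The receptor genes were lower in clusters 6 and 12 in all 8 libraries. Pdgfra was 408 ± 138 CPM there against 636 ± 215 in clusters 0, 7 and 16, Pdgfrb 93.8 ± 30.7 against 200 ± 51.2, and Pdgfrl 52.5 ± 30.6 against 232 ± 84.3. Cells per library ranged from 8 to 164 in the former group and from 9 to 238 in the latter. A UMI of both Pdgfra and Pdgfrb was found in 68.3% of the cells of cluster 0, 64.5% of cluster 7 and 77.2% of cluster 16. The share was 50% in cluster 6, 54.4% in cluster 12 and 35.4% in the Ptx3- and Ccl2-rich cluster 19. Median depths in this order were 10128, 7770.5, 9806, 8542, 9002.5 and 8866 UMIs. Cluster 19 drew 53.4% of its cells from 1 library. The FB cluster 25 (Gm26523, Nav3) was shallow, with a median of 1530 UMIs, and 46.9% of its cells came from 1 library.

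**Figure D3:**
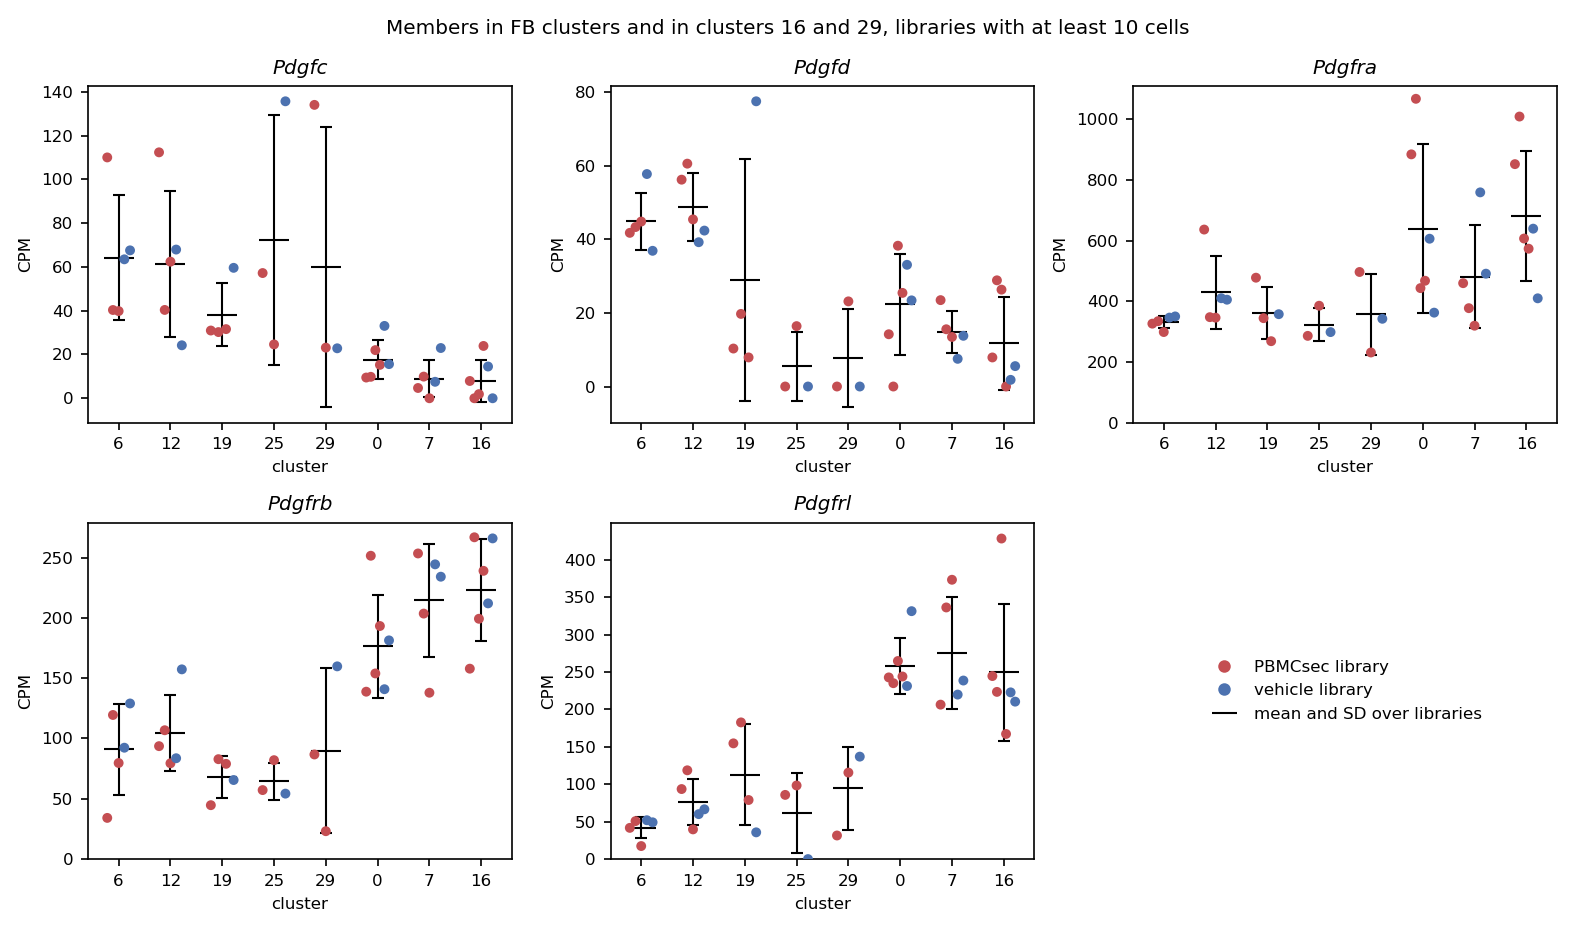
Levels of Pdgfc, Pdgfd, Pdgfra, Pdgfrb and Pdgfrl (vertical axes, CPM) in the FB clusters and the unnamed clusters 16 and 29 (horizontal axes). Points are libraries with at least 10 cells of the cluster (red PBMCsec, blue vehicle), and black bars show the mean and SD over these libraries. Pdgfrl is 42.2 CPM in cluster 6 and 75.7 in cluster 12, against 250 to 275 in clusters 0, 7 and 16, while Pdgfc runs the other way.

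Genes with the most similar profile over the 35 clusters of at least 30 cells are named as a description, since clusters share libraries and depth. For Pdgfra these were Dnm1, Dpep1 and Mrc2 (Pearson r of log2(CPM + 10) from 0.97 to 0.98). For Pdgfrb they were Col6a3 (0.97), Pde3a and Pcolce, and for Pdgfrl Tbx15 (0.98), Pcolce and Col6a3. Pdgfd ran with B3galnt1 (0.94), Sparcl1 and Fam13c, and Pdgfc with C1qtnf1 (0.87), Gdf10 and Rorb. Profiles like that of Pdgfa were found for Col4a5 (0.86), Ajuba and Bcam, and for Pdgfb Rasd2 (0.76), 8430408G22Rik and Ehd4 came closest. Among the members themselves, r was 0.92 for Pdgfra with Pdgfrl, 0.93 for Pdgfrb with Pdgfrl, 0.78 for Pdgfra with Pdgfrb, and -0.39 for Pdgfa with Pdgfra.

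The design then asks whether PBMCsec changed any of these genes. For each class, the UMIs of a library were added up and compared with edgeR, and levels in this comparison are CPM scaled by TMM, edgeR's correction for library composition. FBs, HFs, TCs, DCs/Macro and all kept cells together could be tested. KCs could not, because vehicle library 1 held 8 of them. Of 9159 genes tested in FBs, edgeR called 0% at an adjusted p under 0.05, and DESeq2 called 0. An unadjusted p under 0.05 was reached by 238 genes (2.6%). Pdgfc, Pdgfd, Pdgfra, Pdgfrb and Pdgfrl passed the filter on low counts in FBs, and 0 of these 5 reached an unadjusted p under 0.05. Groups that did not overlap were found for 1.93% of all genes and for none of the 5.

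Pdgfc had the lowest fold change of the 5 in FBs. The PBMCsec libraries 1 to 4 held 39.8, 8.77, 28.4 and 27.9 CPM, and the vehicle libraries 51.0, 57.9, 41.2 and 31.8. PBMCsec library 1 lay within the vehicle range and the others below it. The log2 fold change was -0.57 (SE 0.33, edgeR adjusted p = 0.9999, exact two-sided permutation p = 0.0571 over 70 labellings, smallest possible 0.0286), and it ran from -0.96 to -0.38 over 17 alternatives, with a smallest adjusted p of 0.684. Pdgfc was higher in clusters 6 and 12 than in clusters 0, 7 and 16. Clusters 6 and 12 made up 22.6% to 40.4% of the FBs after PBMCsec and 36.5% to 46.2% after vehicle. Within these clusters Pdgfc was 51.4 ± 43.1 CPM without TMM scaling after PBMCsec and 69.0 ± 12.5 after vehicle. The part of the cluster mix in the difference was not tested.

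Pdgfrl had the highest fold change in FBs. The 4 PBMCsec libraries lay close together at 180, 215, 194 and 174 CPM, and the vehicle libraries were spread over 29.7, 109, 136 and 205 CPM. The lowest, vehicle library 1, held 7 Pdgfrl UMIs in 26 FBs. Vehicle library 4 lay inside the PBMCsec range and the other 3 below it. The log2 fold change was 0.58 (SE 0.37, edgeR adjusted p = 0.9999, exact two-sided permutation p = 0.114). It was 0.31 without vehicle library 1, 0.98 without vehicle library 4, 1.57 with the libraries numbered 1 and 2 only and 0.13 with the libraries numbered 3 and 4 only. In clusters 6 and 12 Pdgfrl was 67.5 ± 34.2 CPM after PBMCsec and 37.6 ± 20.4 after vehicle, and in clusters 0, 7 and 16 it was 267 ± 42.6 and 197 ± 107, both without TMM scaling. Clusters 0 and 7 made up 38.2% to 65.4% of the FBs after PBMCsec and 30.8% to 50.3% after vehicle. The part of this mix in the Pdgfrl difference was not tested.

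The remaining FB members were close between the groups. Pdgfra stood at 648, 958, 378 and 376 CPM after PBMCsec and at 671, 405, 503 and 387 CPM in vehicle libraries 1 to 4, a log2 fold change of 0.26 (SE 0.32). Pdgfrb stood at 119, 221, 133 and 133 CPM against 115, 154, 131 and 171, a log2 fold change of 0.06 (SE 0.25). Pdgfd stood at 22.9, 4.38, 36.0 and 31.7 CPM against 29.7, 12.9, 34.7 and 27.9, a log2 fold change of -0.15 (SE 0.39). All had an edgeR adjusted p of 0.9999. PBMCsec library 2 (52 FBs) was the highest for both receptors and the lowest for Pdgfd, and without it all 3 changed sign, to -0.07 for Pdgfra, -0.16 for Pdgfrb and 0.06 for Pdgfd.

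In HFs, edgeR called 0% of 8959 genes and DESeq2 called 6, while 362 genes (4.04%) had an unadjusted p under 0.05. Pdgfa stood at 82.5, 90.2, 119 and 73.1 CPM after PBMCsec and at 94.8, 94.7, 72.3 and 86.9 CPM in the vehicle libraries, a log2 fold change of 0.11 (SE 0.23, edgeR adjusted p = 0.9998). Without PBMCsec library 3, the highest, it was -0.07. Pdgfb stood at 6.34, 26.3, 15.4 and 9.70 CPM against 9.48, 3.16, 7.73 and 10.8, a log2 fold change of 0.59 (SE 0.44, edgeR adjusted p = 0.9998, exact two-sided permutation p = 0.257). It was 0.41 without PBMCsec library 2 and 0.048 with KCs and HFs summed, an alternative added after the data were seen. Vehicle libraries 1 and 2 held 1 Pdgfb UMI each in HFs. The groups overlapped for both genes. Pdgfc did not pass the filter, with 69 UMIs in HFs, of which 24 came from PBMCsec library 2.

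**Figure D4:**
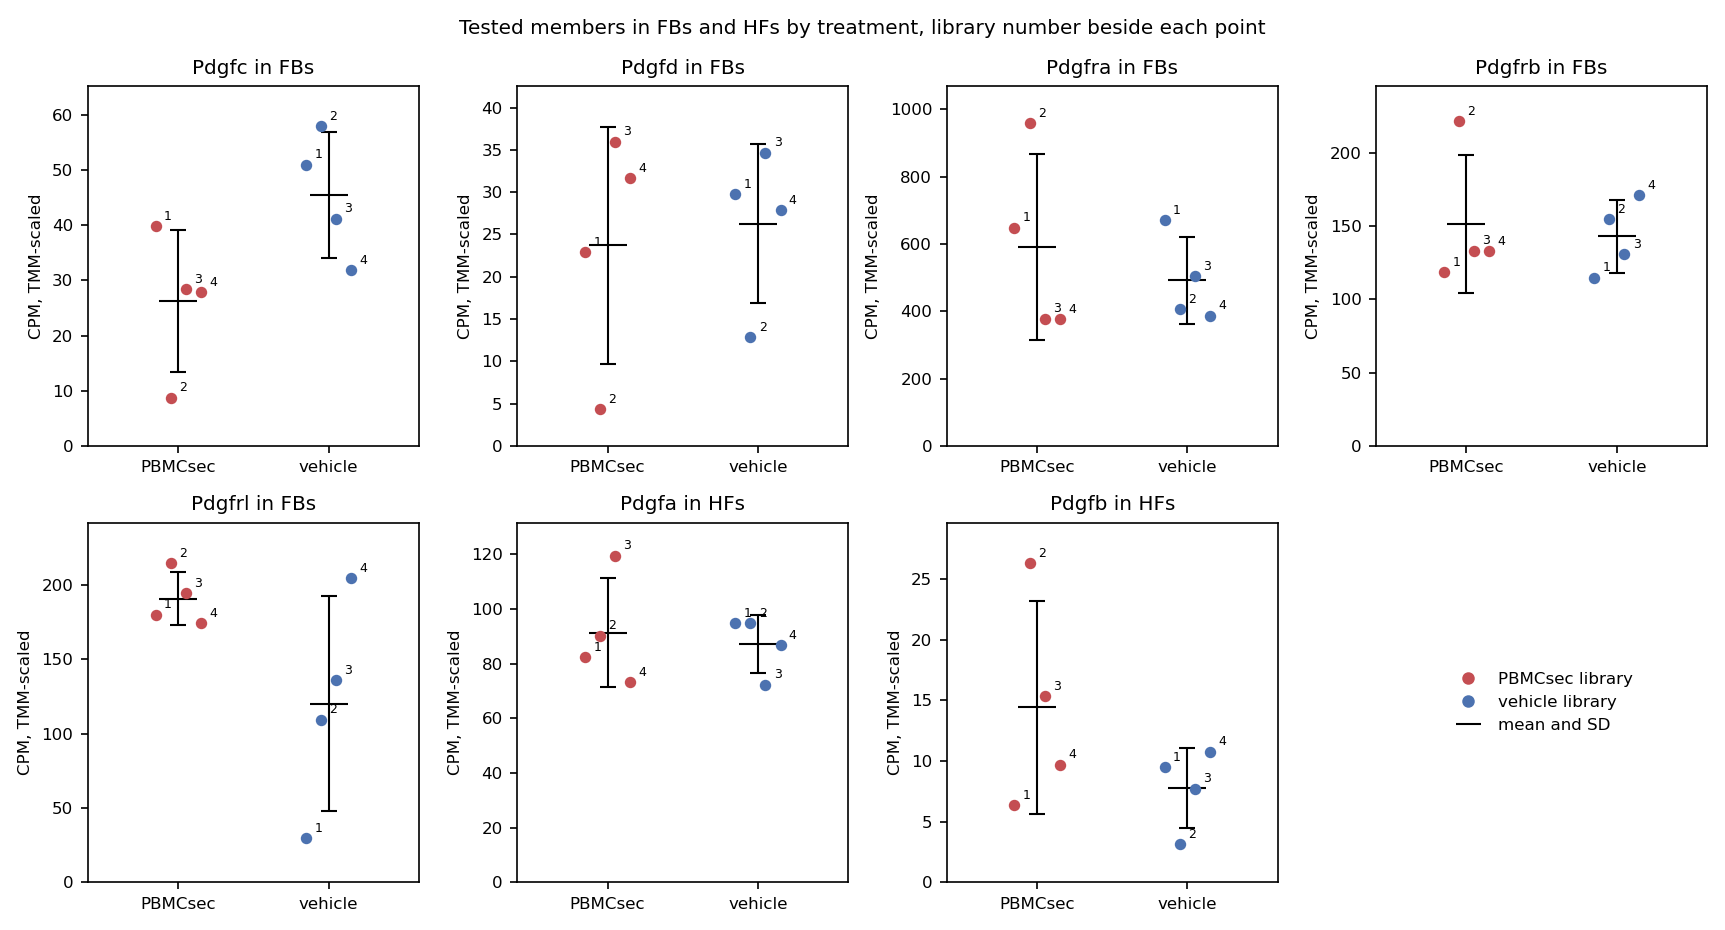
Members that passed the filter in FBs (Pdgfc, Pdgfd, Pdgfra, Pdgfrb, Pdgfrl) and in HFs (Pdgfa, Pdgfb), as TMM-scaled CPM (vertical axes) by treatment (horizontal axes). Each point is a library with its number beside it, and black bars show the mean and SD of 4 libraries. The groups overlap in every panel, and the vehicle libraries of Pdgfrl spread from 29.7 to 205 CPM.

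No member passed the filter in TCs or in DCs/Macro, where their totals were at most 18 and 55 UMIs. EdgeR called 0% of 4664 genes in TCs and 0% of 5619 in DCs/Macro, DESeq2 called 3 and 7, and 147 (3.15%) and 260 (4.63%) genes had an unadjusted p under 0.05. In TCs, where the library numbers were taken to pair the libraries, 7 genes were called with the number as a block. In DCs/Macro, Pdgfb was 17.0 ± 4.05 CPM after PBMCsec, from 14.4 to 23.0, and 9.89 ± 8.28 after vehicle, from 0 to 19.9. Pdgfrb was counted there 8 times in all and had 0.821 ± 0.962 CPM after PBMCsec and 5.53 ± 2.60 after vehicle. Those groups did not overlap, but a library held at most 2 of these UMIs. Among the genes tested 2.63% had groups without overlap, a share that does not cover genes as low as Pdgfrb here, which did not pass the filter.

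In KCs, levels without a test and without TMM scaling were 34.9 to 59.8 CPM of Pdgfa after PBMCsec (4 libraries) and 51.2 to 98.5 CPM after vehicle (3 libraries with 10 cells or more). For Pdgfb they were 11.6 to 20.5 CPM and 15.7 to 32.2 CPM. Of these, vehicle library 2, with 39 KCs, was the highest for both.

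All kept cells of a library were also summed, which mixes the number of cells of each class with the RNA in each cell, and these cannot be told apart here. Of 13182 genes, edgeR called 0% and DESeq2 called 10, and 335 (2.54%) had an unadjusted p under 0.05. All 7 members passed the filter, 0 were called, 0 had groups that did not overlap (1.79% of all genes), and 1 had an unadjusted p under 0.05. That gene was Pdgfrl, with 52.8, 59.3, 85.3 and 43.3 CPM after PBMCsec and 8.50, 12.2, 35.4 and 44.6 CPM in the vehicle libraries. Its log2 fold change was 1.18 (SE 0.47, edgeR p = 0.0324, adjusted p = 0.99999, exact two-sided permutation p = 0.0571). Vehicle library 4 lay within the PBMCsec range. It was 2.41 with libraries 1 and 2 only and 0.70 with libraries 3 and 4 only.

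The other FB genes had log2 fold changes above 0 in all kept cells, at 0.80 for Pdgfra (SE 0.37), 0.58 for Pdgfrb (SE 0.30), 0.59 for Pdgfd (SE 0.44) and 0.32 for Pdgfc (SE 0.31), each with an edgeR adjusted p of 0.99999. Pdgfra and Pdgfd were higher after PBMCsec in 4 of 4 pairs of equally numbered libraries, Pdgfrb, Pdgfc and Pdgfrl in 3 of 4, and Pdgfa and Pdgfb in 2 of 4. The share of all genes with such counts was not worked out, so the counts are a description and show nothing particular to the members. With the library number as a block, the values were 0.75 (SE 0.36) for Pdgfra, 0.62 (SE 0.31) for Pdgfrb, 0.59 (SE 0.26) for Pdgfd, 0.25 (SE 0.19) for Pdgfc and 1.36 (SE 0.43) for Pdgfrl, and edgeR called 0 genes, with 523 at an unadjusted p under 0.05. Without PBMCsec library 3, the highest for Pdgfd, that gene was at 0.15 without the block. FBs made up 16.6% to 31.6% of the kept cells after PBMCsec and 8.65% to 19.7% after vehicle, and the part of this share in the values was not tested. Within FBs, the log2 fold changes were 0.26 for Pdgfra, 0.06 for Pdgfrb, -0.15 for Pdgfd and -0.57 for Pdgfc. Pdgfd and Pdgfc thus had the other sign there. In all kept cells, Pdgfa and Pdgfb, whose UMIs lay mostly outside FBs, had log2 fold changes of -0.18 (SE 0.34) and -0.06 (SE 0.29). Vehicle library 1, in which KCs were 5.30% and HFs 7.28% of the cells, was the lowest for Pdgfa at 19.6 CPM.

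**Figure D5:**
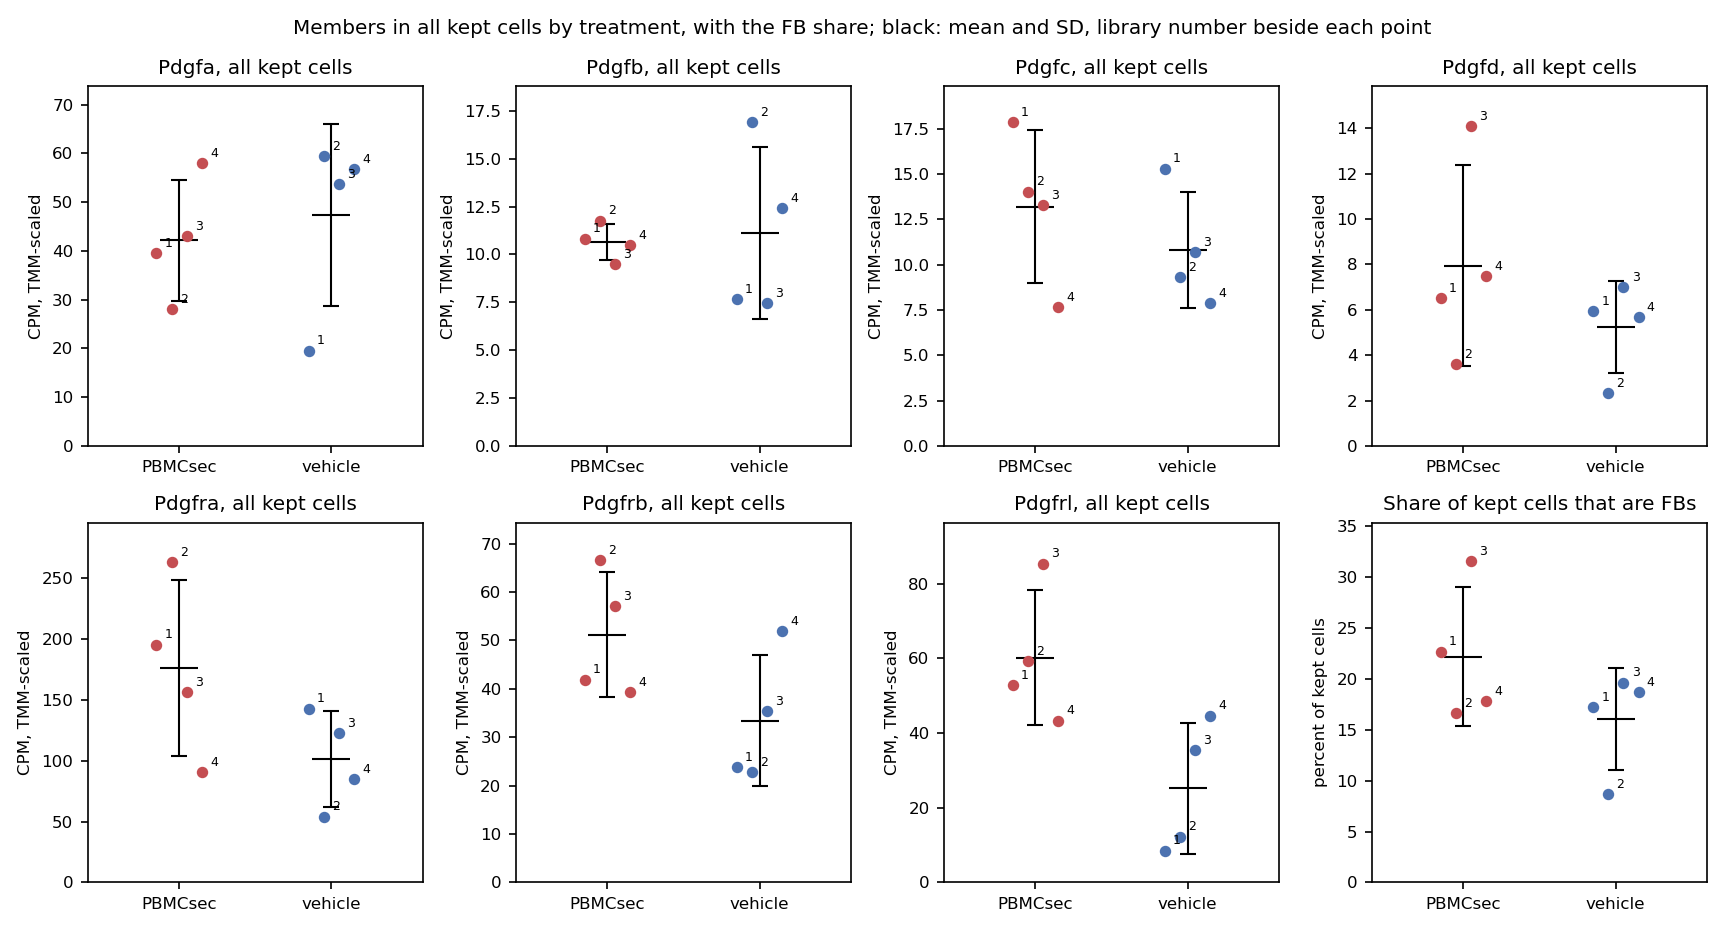
The 7 members in all kept cells of each library, as TMM-scaled CPM (vertical axes), by treatment (horizontal axes), with the percentage of kept cells that are FBs in the last panel. Points are libraries with their number beside them, and black bars show the mean and SD of 4 libraries. Pdgfrl is at 43.3 to 85.3 CPM after PBMCsec and at 8.50 to 44.6 after vehicle, and the FB share overlaps between the groups.

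The pathway around the receptors was described from lists of 78 genes, of which 77 were found: enzymes and proteins that process or bind the ligands, signalling proteins downstream of the receptors, their negative regulators, early response genes, and relatives of both families. In FBs 66 of them were tested, in HFs 65, in TCs 45, in DCs/Macro 54 and in all kept cells 77. EdgeR called none of them higher or lower in any of these. An unadjusted p under 0.05 was reached by 1 in FBs, 8 in HFs, 6 in DCs/Macro and 3 in all kept cells, each higher after PBMCsec. Of all genes, 1.43%, 2.77%, 2.83% and 1.97% reached it in that direction. In TCs 1 reached it, lower after PBMCsec, beside 1.63% of all genes. Since the lists were chosen with earlier results of these data known, these counts are a description.

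In FBs, the genes with the smallest p were Myc, an early response transcription factor, at 43.4 ± 21.5 CPM after PBMCsec and 26.8 ± 9.001 after vehicle (log2 fold change 0.89, SE 0.37), the adaptor Gab1 (-0.69, SE 0.41) and the MAP kinase phosphatase Dusp1 (-0.67, SE 0.40), each with an edgeR adjusted p of 0.9999. Signalling proteins in FBs had a median log2 fold change of -0.04 over 30 genes, beside 0.0015 over all genes, with 14 above 0 and 16 below. Ligand processing genes, among them the activators Plat and Plau, had a median of 0.06 over 9 genes. The early response list, which holds Myc, had a median of -0.18 over 9 genes, with 3 above 0 and 6 below.

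In HFs, 6 of 11 early response genes had an unadjusted p under 0.05, all higher after PBMCsec, beside 2.77% of all genes, and none was called. This count, too, is a description, from a list chosen with earlier results of these data known. The early response list had a median log2 fold change of 0.82, beside 0.012 over all genes. Over all kept cells the median of this list was -0.05, with 4 genes above 0 and 7 below. Ier3 in HFs was at 816 ± 326 CPM against 370 ± 253 (log2 fold change 1.21, SE 0.40) and Ier2 at 410 ± 142 against 236 ± 47.9 (0.79, SE 0.29), both with an edgeR adjusted p of 0.9998. Spry1, an inhibitor of receptor tyrosine kinase signalling, was at 22.4 to 39.3 CPM after PBMCsec and 12.8 to 19.0 after vehicle (log2 fold change 1.17, SE 0.29, edgeR adjusted p = 0.944). Groups that do not overlap were found for 2.75% of the genes tested in HFs.

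In DCs/Macro, Socs3, a feedback inhibitor of cytokine signalling, had the smallest p of the listed genes. It was at 97.7 to 121 CPM after PBMCsec and 8.51 to 44.3 after vehicle. Its log2 fold change was 1.95 (SE 0.35, edgeR adjusted p = 0.133, exact two-sided permutation p = 0.0286, the smallest possible), and the edgeR test missed the threshold. Groups without overlap were found for 2.63% of the genes tested in DCs/Macro, and any such gene reaches this exact p. Thbs1, whose product thrombospondin-1 can bind PDGF, had a log2 fold change of 2.25 (SE 0.67, edgeR adjusted p = 0.775). Pgf, which encodes placental growth factor, had 2.61 (SE 0.94, edgeR adjusted p = 0.988). The groups overlapped for both, at 33.1 to 232 CPM against 2.84 to 44.3 for Thbs1 and 14.7 to 154 against 0 to 82.2 for Pgf. Braf, Ptpn2 and Pik3ca had the smallest p in TCs, with log2 fold changes of -0.69, -0.50 and -0.63. Over all kept cells these were Lrp1 (0.59), Sparc (0.67) and Pgf (1.45), and the edgeR adjusted p was 0.9999 for each of the genes in TCs and 0.99999 for each in all kept cells.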

How the data were processed

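Skin biopsies of 4 mm were dissociated and 8 libraries (4 PBMCsec, 4 vehicle) were prepared with 10x Genomics 3′ chemistry v3.1, per the labels. The values the authors deposited are unnormalized UMI counts for each gene in each barcode called as a cell, from reads aligned to mm10. The submitters' processing notes name Cell Ranger 3.0.2, while the study's methods name another version. The members and the gene lists were chosen with earlier results of these data known.

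Barcodes were kept if they held 500 to 4000 genes, no more than 20000 UMIs and no more than 5% mitochondrial counts, and 16900 exceeded the last limit. Counts were normalized to 10000 per cell, integrated by library and clustered in Seurat 5.3.0 (2000 features, 30 dimensions, anchor filter 100, anchor weight 50, resolution 1) under R 4.3.3. Members and pathway genes were left out of the features. A cluster was named from at least 3 markers found in at least 25% of its cells at 2-fold higher CPM (prior of 10 CPM). It was left unnamed where its 10 leading genes held more markers of another class than of its own, a step applied after the clusters were seen. The doublet calls of Scrublet, run in scanpy 1.11.5, numbered 18 (0.293% of kept cells), a share at which the caller cannot be taken to have worked, so no cell was removed and removal of the 5% with the highest scores was an alternative.

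Class levels are summed UMIs per 1000000, averaged over libraries with at least 10 cells. Neighbouring classes were compared by exact sign-flip tests on log2(CPM + 10). Treatment was tested on summed counts with edgeR's quasi-likelihood test (version 4.0.16, low counts removed by filterByExpr, TMM scaling, Benjamini-Hochberg adjustment over all genes, threshold 0.05) in classes with 10 cells in every library, and DESeq2 1.42.0 was the alternative. Single members were also compared by exact two-sided permutation of mean log2 CPM (prior count 2) over 70 labellings (numpy 2.4.6, scipy 1.17.1, pandas 2.3.3, Python 3.11.15). Scripts were tested on simulated data. Intervals at 95% are exact and cover counting error only.

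Named genes were all 7 members, the 3 most similar genes of each over clusters (genes with at least 50 UMIs), the leading genes of clusters, and from the pathway lists every called gene or else the 3 with the smallest p in each class. Whether equal library numbers pair a PBMCsec with a vehicle library was checked by correlating deviations from the group means across genes. Equal numbers 1 to 4 gave 0.31, 0.25, 0.19 and 0.41 in TCs and 0.29, 0.30, 0.47 and 0.57 in all kept cells, where the numbers were taken to pair the libraries because each value is over 0.1. In FBs they gave 0.17, -0.01, 0.04 and 0.22, in HFs 0.13, 0.07, 0.10 and 0.42, and in DCs/Macro 0.32, 0.09, 0.28 and 0.28. Libraries of unequal number were not correlated, so these values do not show that equal numbers mark true pairs.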

Additional observations from a re-analysis of the deposited data

Results flagged for a closer look

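In 28 groups of 4 libraries, 2 libraries stood further from the rest than Dixon's limit allows at the 95% level, where chance flags about 1 group in 20. In all kept cells, vehicle library 1 held 19.6 TMM-scaled CPM of Pdgfa, and the other vehicle libraries held 53.8 to 59.4. Its KCs and HFs made up 5.30% and 7.28% of 151 kept cells, against 18.8% to 25% and 13.9% to 24.4% in the other vehicle libraries, and the part of this share was not tested. In FBs, PBMCsec library 2 held 221 TMM-scaled CPM of Pdgfrb, from 101 UMIs in 52 cells, and the other PBMCsec libraries held 119 to 133. The same library was the highest for Pdgfra in FBs.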

How the results depend on the processing

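No member that passed the main filter of a class was called there by edgeR or DESeq2 in any alternative that tested it. Members that failed this filter, such as all of them in TCs and DCs/Macro, were not followed in the alternatives. Over all genes edgeR called 0 in each class, and the counts moved as follows, for causes that were not tested. DESeq2 called 6 in HFs, 3 in TCs, 7 in DCs/Macro and 10 in all kept cells. Without the filter on low counts edgeR called 1 in HFs, 39 in TCs and 124 in DCs/Macro. The replicate block by library number gave 1 in FBs, 5 in HFs, 7 in TCs and 4 in DCs/Macro. Libraries numbered 1 and 2 alone gave 5 in FBs, 1 in HFs and 8 in DCs/Macro, and libraries numbered 3 and 4 alone 1 in HFs, 4 in TCs and 1 in DCs/Macro. Removal of the cells with the highest Scrublet scores gave 2 in DCs/Macro. Leaving out 1 library gave 0 to 1 in HFs, TCs and DCs/Macro.

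Log2 fold changes near 0 changed sign. In FBs, leaving out 1 library moved Pdgfd between -0.41 and 0.063, Pdgfra between -0.065 and 0.45 and Pdgfrb between -0.16 and 0.18, and libraries 3 and 4 alone gave 0.12, -0.23 and -0.17. Pdgfa in HFs lay between -0.070 and 0.21 when 1 library was left out, at -0.21 with libraries 1 and 2 alone and at -0.14 with KCs and HFs summed, an alternative added after the data were seen, as was cluster 16 counted as FBs. In all kept cells, Pdgfb was 0.011 under the replicate block, 0.024 with libraries 3 and 4 alone, 0.032 without the highest Scrublet scores and between -0.23 and 0.18 when 1 library was left out, and Pdgfc was -0.046 over all barcodes. Pdgfrl in all kept cells stayed above 0 in 17 alternatives, from 0.67 to 2.41, with a smallest adjusted p of 0.233 (edgeR or DESeq2).

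Between classes, Pdgfb in ECs minus KCs was 1.70 and Pdgfc in FBs minus HFs 1.52 when averaged over cells, both then past the unadjusted threshold. Leaving out 1 library moved the latter between 1.18 and 1.89 and Pdgfd in ECs minus FBs between -0.29 and 0.022. Thinned to 1000 UMIs per cell, the share with a UMI was 8.36% for Pdgfa in HFs, 7.59% for Pdgfb and 2.53% for Pdgfd in ECs, and 3.90% for Pdgfc, 33.2% for Pdgfra, 12.7% for Pdgfrb and 13.7% for Pdgfrl in FBs. KCs (8 cells in 1 library) and HFs at resolution 0.5 were not tested. Vehicle libraries 1 and 2 hold 26 and 18 FBs, and FB counts went down to 4 UMIs of Pdgfc and 2 of Pdgfd in a library.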
